A study of Caenorhabditis elegans with 2 samples.

Results

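The genes described here are 10 transcription regulators that act on the epidermis of Caenorhabditis elegans: elt-1, lin-26, nhr-23, nhr-25, egl-18, elt-6, egl-27, bro-1, rnt-1 and blmp-1. They were taken by name, by a rule that uses no measured value but with earlier results of these data known, and all 10 matched among the 19973 protein-coding genes of the 6 nuclear chromosomes in the Ensembl annotation of assembly WBcel235, whose coordinates are those of ce11. The question was where the GATA factor ELT-3 was found, by chromatin immunoprecipitation and sequencing (ChIP-seq), from 5 kb upstream of each annotated 5′ end to the end of the gene. Per the labels, worms of strain OP75 carried the integrated insertion wgIs75 in an unc-119(ed3) background and made ELT-3 tagged with eGFP. Whole mixed-stage embryos, male and female pooled, gave the chromatin, and the labels do not say what drives the tagged gene. There was 1 group of 2 biological replicates from 1 strain, so no condition could be set against another. All cell types of the embryo were pooled, and a peak list cannot say in which cells a site was occupied.

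ELT-3 is a zinc finger protein of the hypodermis, the sheet of epidermis that secretes the cuticle. In the known order of worm epidermal development, the GATA factor ELT-1 specifies epidermal fate first, and LIN-26 and ELT-3 act after it. The lateral seam cells form a separate, stem-like part of the epidermis, and EGL-18, ELT-6, RNT-1 and BRO-1 work there. Nuclear receptors NHR-23 and NHR-25 and the zinc finger protein BLMP-1 act in moulting and in the timing of larval development. GATA factors bind the short sequence WGATAR, in which W is A or T and R is A or G, so that AGATAA and TGATAG are both forms of it.

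The ChIP regions that carry the account are shown first, as the bases up to 50 on each side of the summit (the position the caller gives within a region), read from the ce11 genome in RefSeq. The first 4 are the sites on chromosomes II, IV and X that ranked highest among these genes. The last 2 are the highest sites of elt-1, the regulator that specifies epidermal fate, and of lin-26. The highest sites of nhr-23 (rank 474) and blmp-1 (rank 1023), which have no WGATAR within 50 bp of the summit, lie on another chromosome and are not shown, so the sites printed are not a fair sample for that motif. All are written 5′ to 3′ on the plus strand, which is the strand of each gene, and capitals mark WGATAR read on either strand. Below, a region is said to hold WGATAR where a match lies within 50 bp of its summit, unless the whole region is named.
egl-27 intron, chrII:6842819-6842919: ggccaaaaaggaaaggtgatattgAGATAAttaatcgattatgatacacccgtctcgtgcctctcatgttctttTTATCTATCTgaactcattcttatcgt
egl-18 intron, chrIV:1904372-1904472: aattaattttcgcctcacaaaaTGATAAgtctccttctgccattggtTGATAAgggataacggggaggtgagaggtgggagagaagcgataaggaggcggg
nhr-25 upstream, chrX:13007945-13008045: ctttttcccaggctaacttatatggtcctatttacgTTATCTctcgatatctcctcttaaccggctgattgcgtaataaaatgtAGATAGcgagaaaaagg
egl-27 second intronic site, chrII:6836950-6837050: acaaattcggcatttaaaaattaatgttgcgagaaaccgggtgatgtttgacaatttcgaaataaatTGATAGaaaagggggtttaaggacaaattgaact
elt-1 upstream, chrIV:9612098-9612198: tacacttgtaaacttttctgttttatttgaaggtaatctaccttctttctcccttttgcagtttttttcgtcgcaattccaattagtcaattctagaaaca
lin-26 upstream, chrII:7679873-7679973: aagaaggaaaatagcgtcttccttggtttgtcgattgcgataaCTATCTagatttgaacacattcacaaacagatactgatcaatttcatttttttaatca

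The authors deposited a relaxed list of 19168 regions for replicate 1, one of 26381 for replicate 2 and one of 12702 called on both replicates pooled. An optimal list of 637 regions passed their threshold on the irreproducible discovery rate (IDR), and all 637 were the highest-scoring regions of the pooled list. The pooled list was deposited as peaks and background for input to IDR. Its regions outside the optimal list are therefore candidates, and may be background. Below, a site means the place of a region, whether or not binding there is established. Each region has the authors' own score, with no stated scale. Over nuclear regions the scores ended at 233 in the pooled list, at 142 in that of replicate 1 and at 91.8 in that of replicate 2. They are therefore read below only as ranks within a list, or as percentiles from 0 (lowest) to 100 (highest). Read depth is unknown from these lists.

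The ChIP regions at these regulators lay mostly below the authors' threshold, where a list also holds background. Optimal-list regions lay at 2 of the 10 genes, egl-27 and nhr-23 (exact 95% interval 2.52 to 55.6%), where 5.37% of all nuclear protein-coding genes had one. Pooled-list regions lay at 9 of the 10, all but elt-6, against 59.6% of all genes. The replicate 1 list had regions at 8, all but lin-26 and bro-1, against 74.0% of all genes, and the replicate 2 list at all 10, against 83.7%. A pooled-list region with WGATAR within 50 bp of the summit lay at 7 of the 10 (exact 95% interval 34.8 to 93.3%), against 21.9% of all genes. For 5 genes, egl-27, nhr-23, egl-18, nhr-25 and blmp-1, the highest region was at percentile 90 or above in the pooled list, where 10.5% of all genes had such a region. The windows of these regulators were longer than usual, with a median of 10.5 kb (7.32 to 20.5 kb) against 7.03 kb over all genes, and longer windows hold more regions. The intervals cover counting error over genes only, and since the genes were picked by name no test was made on the list.

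The number of regions differed widely between the 10 genes. The pooled list held 9 regions at nhr-23, 7 at egl-27, 6 each at nhr-25 and blmp-1 and 4 at egl-18. It held 2 at elt-1, 1 each at lin-26, rnt-1 and bro-1 and 0 at elt-6. Among all genes, 49 (0.245%) had 9 or more regions in the window, and 1.16% had 6 or more. Summed over the windows there were 0.303 regions per kb at these regulators and 0.136 per kb over all genes. For single genes the density ran to 0.779 per kb at nhr-23 and 0.573 at nhr-25 and blmp-1. At egl-27 it was 0.391. At egl-18, whose window was the longest, it was 0.195, close to the 0.194 of elt-1 although elt-1 had fewer regions. The density was 0.137 at bro-1, 0.132 at lin-26 and 0.0571 at rnt-1. The median density was 0.195 per kb over the 10 genes and 0.122 over all genes. For the 28 other epidermal and seam regulators given below the median was higher, at 0.312 per kb. Summed over their windows it was 0.278 per kb, so a high density was not particular to these 10 genes.

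**Figure D1:**
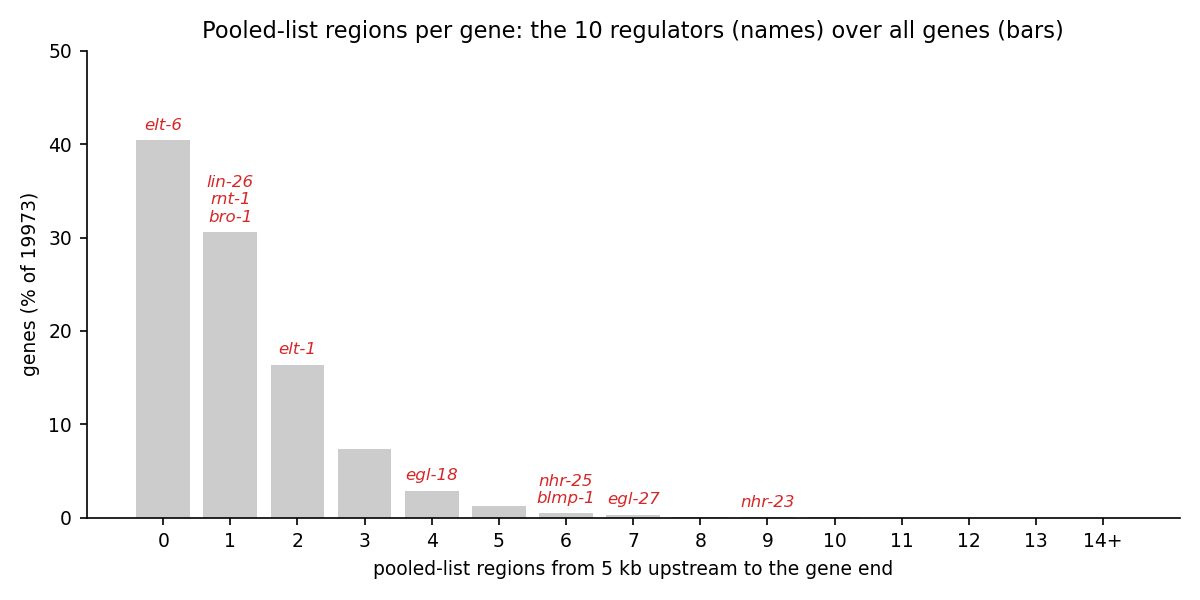
Number of pooled-list regions from 5 kb upstream to the gene end (horizontal axis) against the percentage of all nuclear protein-coding genes with that number (bars), with each of the 10 regulators named above the bar of its own number. Names run from elt-6 at 0 to nhr-23 at 9, and the bars are low from 4 regions upward.

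At the epidermal fate genes elt-1 and lin-26, pooled-list sites were of middle or low rank, and each was present in a single replicate list. The highest region of elt-1 (chromosome IV, 9614995 to 9620280, plus strand) was intergenic, with its summit 2847 bp upstream, and had a score of 23.3 and rank 3045 in the pooled list. In the replicate 1 list it ranked 1537, at percentile 92.0, and no region of the replicate 2 list overlapped it. The 1 region of elt-1 in the replicate 2 list, at percentile 81.7, lay elsewhere in the window. The region 2847 bp upstream, printed above, held no WGATAR within 50 bp of its summit, though it had WGATAR elsewhere in the whole region. A second region of elt-1, in an intron 2887 bp downstream of the 5′ end, held 1 WGATAR but ranked 11913, at percentile 6.21. At lin-26 (chromosome II, 7682198 to 7684764, plus strand), which encodes a zinc finger protein that keeps epidermal cells in their fate, the pooled list had a single region, at rank 6148. Its summit lay 2275 bp upstream in an intron of the neighbouring gene lir-1, and WGATAR began 7 bases before it. That site was at percentile 91.2 in the replicate 2 list, where it ranked 2314, and lin-26 had 7 regions in that list. In the replicate 1 list lin-26 had 0. The nearest optimal-list summits were far from both genes, at 47.0 kb from elt-1 and 50.8 kb from lin-26.

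The seam-cell GATA genes egl-18 and elt-6 differed from each other although they lie 137 bp apart on chromosome IV. The highest region at egl-18 (1902322 to 1917840, plus strand) was in an intron, 2100 bp downstream of the 5′ end, with a score of 41.6 and rank 654. It stood 17 places below the end of the optimal list, whose lowest score was 42.0. Both of its WGATAR matches were TGATAA, one starting 28 bases and the other 3 bases before the summit, as the capitals show. In the pooled list as a whole, 1.87% of nuclear regions held 2 or more TGATAA within 50 bp. This intronic site was present in both replicate lists, at rank 438 in replicate 1 and rank 2181 in replicate 2. A second region 2338 bp downstream (rank 2198) overlapped it in sequence and held no WGATAR within 50 bp of its summit, though all 4 pooled-list regions of egl-18 held it somewhere in the whole region. It ranked 1795 in replicate 1 and 15628 in replicate 2. At elt-6 (1917977 to 1921643, plus strand) the pooled list had no region, and each replicate list had 3 of low or middle rank. In replicate 1 the highest was at percentile 33.5, in an intron of elt-6. In replicate 2 it was at percentile 68.8, in an intron of egl-18. Regions of elt-6 that lie upstream of it are also regions of egl-18, since its 5 kb window runs into that gene.

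Little was found at rnt-1 and bro-1, which encode the RUNX protein of the seam lineage and its CBFβ partner. The single pooled-list region of rnt-1 (chromosome I, 5776093 to 5788611, plus strand) had rank 8041. Its summit was intergenic, 2105 bp upstream of rnt-1 and 597 bp from the 5′ end of hil-5. WGATAR was in the whole region but not within 50 bp of the summit. It was matched in the replicate 2 list, at rank 6909, and not in that of replicate 1. The highest regions of rnt-1 in the replicate lists were at percentile 64.9 in replicate 1 and 79.7 in replicate 2, at other positions. An optimal-list region lay farther out, with its summit 7264 bp upstream and nearest to lron-8, at rank 171 and without WGATAR. The pooled-list region of bro-1 (chromosome I, 5186926 to 5189240, plus strand) was in an intron 438 bp downstream of the 5′ end. It ranked 9372, and both its WGATAR matches were TGATAA. The replicate 2 list had a matched region at rank 10080, and replicate 1 had 0 regions at bro-1. In the pooled list the sites of both partners were thus low, at percentile 36.7 for rnt-1 and 26.2 for bro-1.

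The nuclear receptor genes nhr-23 and nhr-25 had 9 and 6 pooled-list regions, and WGATAR was within 50 bp of the summit in 0 of the 9 at nhr-23 and in 2 of the 6 at nhr-25. For nhr-23 (chromosome I, 7214745 to 7221299, plus strand), whose product drives each moult, the optimal-list region was intergenic at 7213584 to 7213963, 971 bp upstream of the 5′ end. It had a score of 46.6 and rank 474 in the pooled list. In replicate 2 this site ranked 208, and in replicate 1 it ranked 2573. Replicate 1 had its highest region at another place, rank 571, 3968 bp upstream inside a coding exon of C01H6.4. In the pooled list further regions at nhr-23 lay 2492 bp upstream (rank 1110), also in a coding exon of C01H6.4, and 2761 bp and 1367 bp downstream in introns (ranks 1809 and 2467). None of the 9 pooled-list regions held WGATAR within 50 bp of the summit, while 4 held it somewhere in the whole region. In the replicate 2 list, regions 3840 bp (rank 13559) and 6358 bp (rank 3169) downstream each held 1 match within 50 bp. Upstream of nhr-23 the 5 kb window crosses C01H6.3 and C01H6.4.

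At nhr-25 (chromosome X, 13008493 to 13013964, plus strand), which encodes a receptor needed for epidermal development and moulting, the highest region lay 498 bp upstream in intergenic sequence. Its score was 36.8 and its rank 877. The replicate lists had this site at closely similar percentiles, 95.2 in replicate 1 (rank 918) and 93.9 in replicate 2 (rank 1611). Its 2 WGATAR matches started 14 bases before and 34 bases after the summit. Farther upstream, a site 1627 bp from the 5′ end ranked 1253, with no WGATAR, and one 3549 bp away ranked 7620, with 1. The 4 regions upstream of nhr-25 were all intergenic, and no other protein-coding gene lies in its 5 kb upstream. Over whole regions, 5 of the 6 at nhr-25 held WGATAR.

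The highest-ranking site of all 10 genes was inside egl-27, which encodes a relative of the MTA chromatin proteins and acts in embryonic patterning. At egl-27 (chromosome II, 6835008 to 6847908, plus strand) it covered 6842679 to 6843058, in an intron, 7861 bp downstream of the first annotated 5′ end. With 14 annotated transcript starts in the gene, this summit was 465 bp from the nearest of them, and the nearest 5′ end of any gene as a whole was that of tbc-6, 5255 bp away. Counting each region only for the nearest 5′ end of a gene therefore left 1 of the 10 regulators, nhr-23, with an optimal-list region. The egl-27 site stood at percentile 99.1 in the pooled list, with a score of 77.5, and ranked 175 in replicate 1 and 125 in replicate 2. The site was thus near the top of each list. Of its 3 WGATAR matches, one started 26 bases before the summit and the others 24 and 28 bases after it, and those after it overlap each other by a pair of bases. Across the pooled list 1.41% of nuclear regions held 3 or more. The second intronic site printed above, 1992 bp downstream, ranked 972 in the pooled list. It was placed very differently by the replicates, at rank 497 in replicate 1 and rank 24123 in replicate 2. A further site, 6330 bp downstream (rank 5485), held 2 matches, and the remaining 4 regions of egl-27 held none within 50 bp of the summit. Over whole regions, 5 of the 7 held WGATAR.

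For blmp-1 (chromosome I, 10409302 to 10414773, plus strand), a PRDM-type repressor that acts in larval timing, the highest-scoring site was not one with WGATAR. Its highest region was intergenic, 3063 bp upstream, with a score of 34.7 and rank 1023, and held no WGATAR. The replicate 2 list had that site at rank 1008, and replicate 1 had an overlapping region at rank 1446, with its summit 108 bp away. In the first intronic region, 388 bp downstream, there were 4 WGATAR matches, 3 of them TGATAA, at a rank of 11965. Such density was found in 0.316% of nuclear pooled-list regions, which held 4 or more. Replicate 1 placed that intronic site at rank 2687 and replicate 2 had no region overlapping it. A further region in the 3′ UTR, 5295 bp downstream (rank 6031), held 2 matches, both TGATAA.

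**Figure D2:**
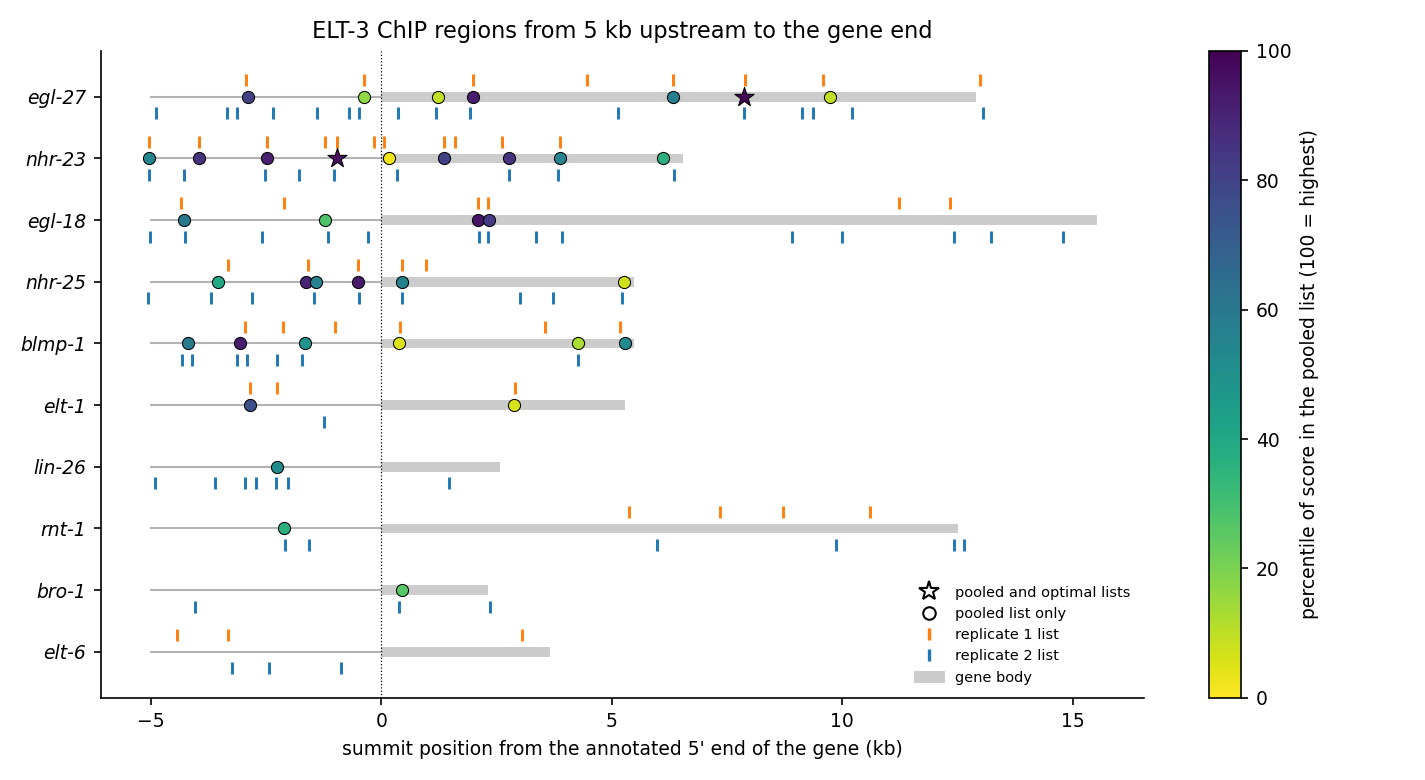
Summits of ELT-3 ChIP regions along each gene, in kb from its annotated 5′ end, with genes ordered by the rank of their highest pooled-list region. Stars are regions of the optimal list and circles regions of the pooled list alone, coloured by percentile, and ticks above and below each line are regions of the replicate 1 and replicate 2 lists. The stars lie 7861 bp inside egl-27 and 971 bp upstream of nhr-23, and elt-6 has ticks only.

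In order of their highest pooled-list region, the genes ran egl-27 (percentile 99.1), nhr-23 (96.3), egl-18 (94.9), nhr-25 (93.1), blmp-1 (92.0), elt-1 (76.0), lin-26 (51.6), rnt-1 (36.7) and bro-1 (26.2). The median over these 9 was 92.0, against 64.2 over the 11906 genes that had any pooled-list region. A gene with more regions has more chances to rank high. The first 5 genes of this order had 4 to 9 pooled-list regions each, where the median over all genes was 1. Counted by region, 8 of the 37 at these genes were at percentile 90 or above (21.6%, exact 95% interval 9.83 to 38.2%). Over all nuclear pooled-list regions the share was 9.83%, equal to the lower limit as rounded. The part that the number of regions plays in the higher median was not tested. Neighbours in the upper part of this order were not separated by the replicates. In replicate 1 egl-18 (97.7) stood above nhr-23 (97.0), and in replicate 2 blmp-1 (96.6) stood above nhr-25 (93.9) and egl-18 (91.7). The first 5 genes kept percentiles of 91.7 or more in both replicate lists, though for nhr-23 and blmp-1 by regions at different positions. At blmp-1 the highest region lay 5185 bp downstream in replicate 1 (rank 1004) and 1713 bp upstream in replicate 2 (rank 889), and none of its 6 pooled-list regions was matched in both lists. By contrast lin-26 stood at 91.2 in replicate 2 with no region in replicate 1, so its place rests on 1 library. Among the 637 highest regions of replicate 1 there were sites at nhr-23, egl-18 and egl-27, or 3 of 10 genes against 5.22% of all genes. Those of replicate 2 had sites at nhr-23 and egl-27, or 2 of 10 against 5.49%. Both genes were therefore in the highest 637 of each replicate, as were 3.05% of all genes, though at nhr-23 the replicates placed those sites at different positions.

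**Figure D3:**
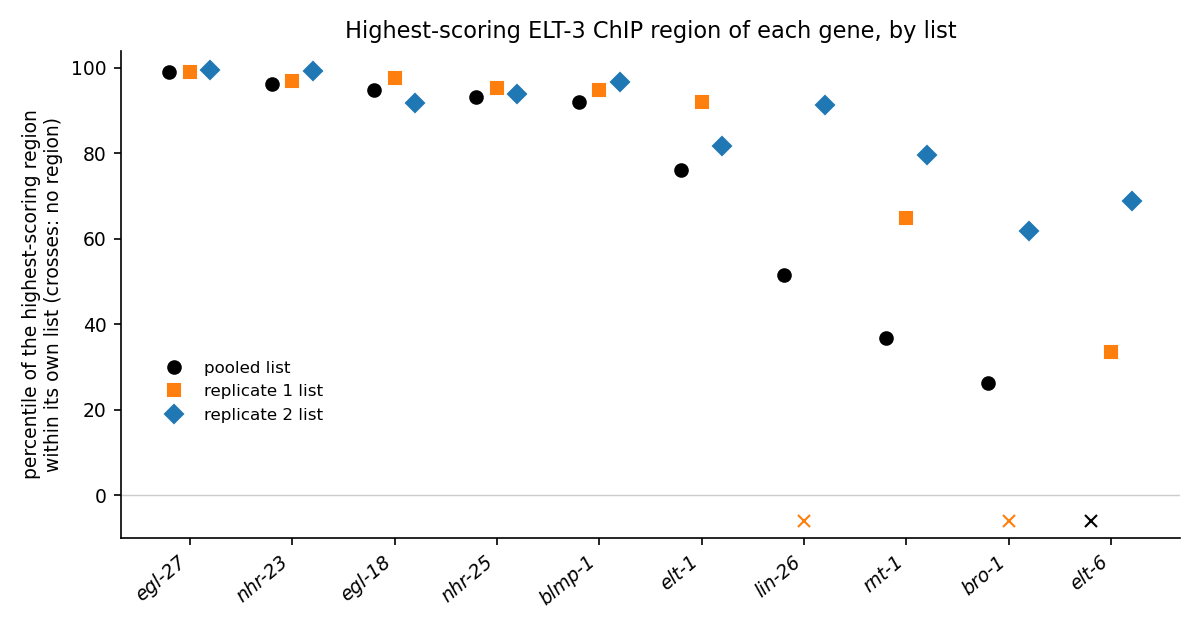
Percentile (vertical axis, 100 is the highest score) of the highest-scoring region of each gene within the pooled list (circles), the replicate 1 list (squares) and the replicate 2 list (diamonds), with crosses where a list had no region. The first 5 genes stay at 91.7 or above in all 3 lists, and the 3 symbols spread apart from elt-1 onward.

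Site by site, the replicates agreed at only part of the regions. Of the 37 pooled-list regions of these genes, 20 had a replicate 1 summit within 100 bp (54.1%, exact 95% interval 36.9 to 70.5%), against 72.4% of all nuclear pooled-list regions, which lies outside the interval. The interval treats regions as independent, although several share a gene. A replicate 2 summit was within 100 bp of 24 (64.9%, exact 95% interval 47.5 to 79.8%), against 57.5% of all. Both lists matched 12 of the 37 (32.4%), against 36.6% of all, and 5 (13.5%) were matched in neither list, against 6.65%. Counted by any overlap instead, 27 of the 37 were in the replicate 1 list (73.0%, exact 95% interval 55.9 to 86.2%), against 81.9% of all, which lies inside the interval, and 21 of the 37 (56.8%) were in both lists, against 56.7% of all. By gene, 6 of the 10 had a replicate 1 region matched in replicate 2, where 31.7% of all genes did. These were nhr-23, nhr-25, egl-18, elt-6, egl-27 and blmp-1. The elt-6 match, at rank 15533 in replicate 1, lay inside egl-18 and was counted for that gene too. At elt-6 and blmp-1 the matched region had no pooled-list summit within 100 bp. Replicate 1 had 44 regions in these windows and replicate 2 had 72, and the share matched in replicate 2 was the larger one here and the smaller one over all regions. The part that the different lengths of the replicate lists play in this was not tested.

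**Figure D4:**
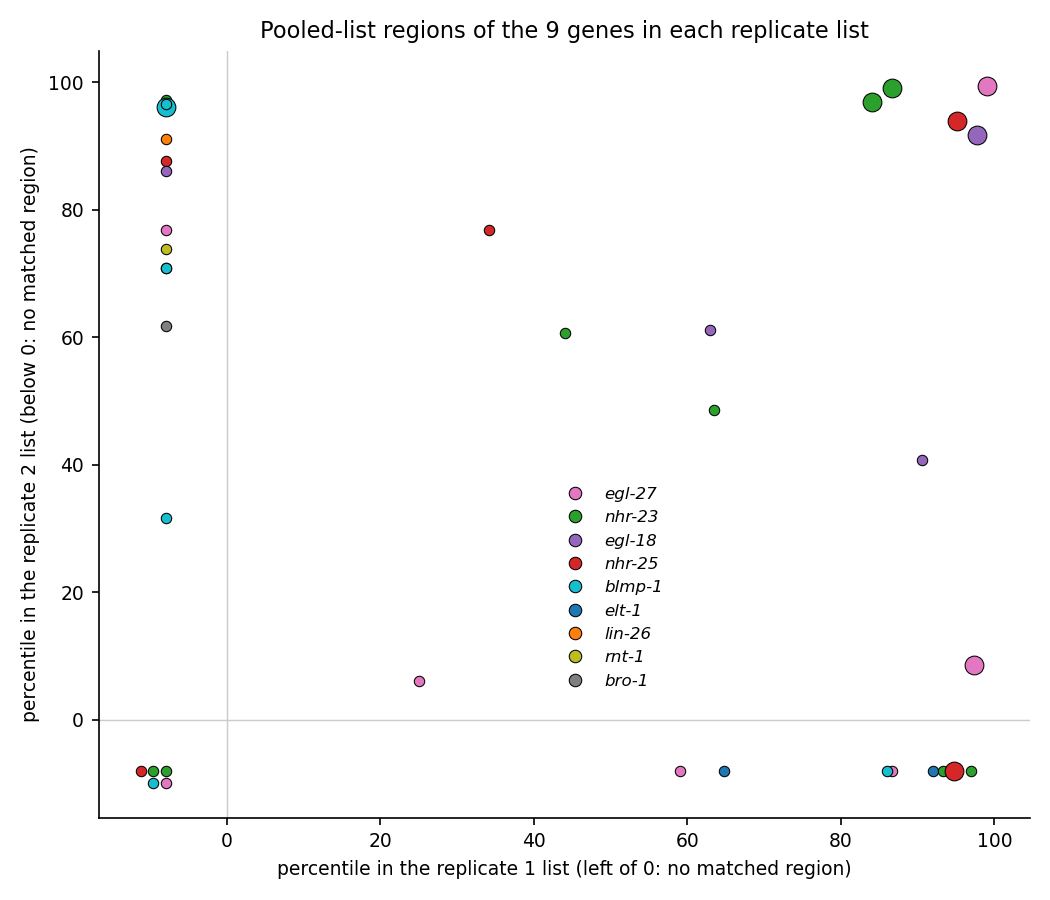
Each point is a pooled-list region of the 9 genes that had one, placed by the percentile of its matched region (summit within 100 bp) in the replicate 1 list and in the replicate 2 list, with unmatched regions set beyond 0, and larger where it was at percentile 90 or above in the pooled list. Of the 37 points, 12 are matched in both lists, and the highest sites of egl-27, egl-18 and nhr-25 lie at the upper right, while the second egl-27 site is at 97.4 in replicate 1 and 8.56 in replicate 2.

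The regions were spread over introns and intergenic sequence. Of the 37 pooled-list summits, 15 were in introns (40.5%, exact 95% interval 24.8 to 57.9%, against 28.3% of all nuclear pooled-list summits). Another 14 were intergenic (37.8%, exact 95% interval 22.5 to 55.2%, against 51.0%). Both intervals include the share over all summits. The windows take in each whole gene body, so their balance of introns and intergenic sequence is partly set by the rule. Coding exons held 4 (10.8%, against 11.9%) and UTRs another 4 (10.8%, against 8.84% for UTRs or other exons). Both sides of the 5′ end had about as many, with 18 summits upstream and 19 downstream, and 3 lay within 1 kb upstream. For 28 of the 37 the nearest 5′ end was that of 1 of these regulators, and nhr-23, egl-27, rnt-1 and blmp-1 had at least 1 region nearer to another gene (C01H6.3, C01H6.4 and cnnm-4 for nhr-23, tbc-6 for egl-27, hil-5 for rnt-1 and tag-353 for blmp-1). Genes of small structural RNAs (rRNA, tRNA, snoRNA and snRNA) had none of the 37 summits within 200 bp, which allows a share of up to 9.49% (exact 95% interval), against 2.52% of all nuclear regions.

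Near 11 of the 37 summits, that is at most 50 bp away, WGATAR was present, a share of 29.7% (exact 95% interval 15.9 to 47.0%), against 24.6% of all nuclear pooled-list regions and 19.8% of windows of equal length across the nuclear genome. TGATAA alone was at 5 (13.5%, against 12.2% of all regions and 9.35% of genome windows). In the pooled list the interval of each share includes the share over all regions. In the replicate 1 list WGATAR was at 15 of the 44 regions of these genes (34.1%, exact 95% interval 20.5 to 49.9%), against 23.3% of all nuclear regions, which lies inside the interval. In the replicate 2 list it was at 24 of 72 (33.3%, exact 95% interval 22.7 to 45.4%), against 21.9%, which lies just outside it. All 3 lists thus had the higher share at these genes, by an amount that the intervals separate from the share over all regions in replicate 2 only, and regions of 1 gene are not independent. The rearranged control sequence WGTAAR was at 6 (16.2%, against 20.7%). GAGAGA was at 7 (18.9%, against 13.1% of all regions and 5.18% of genome windows), of which 3 were at blmp-1. Of all nuclear optimal-list summits, 27.4% had GAGAGA and 38.4% had WGATAR. Over all nuclear regions of the pooled and optimal lists, GAGAGA thus exceeded its genome share by more than WGATAR did. All were searched on both strands. Median G and C content of the summit windows was 36.6%, as over all nuclear pooled-list regions. In the replicate lists it was higher at these genes, at 36.6% against 34.7% in replicate 1 and 39.6% against 35.6% in replicate 2. By gene, WGATAR was near 0 of 9 summits at nhr-23, 3 of 7 at egl-27 and 1 of 4 at egl-18. At nhr-25 and blmp-1 it was near 2 of 6 each. For elt-1 it was 1 of 2, for lin-26 and bro-1 1 of 1 each, and for rnt-1 0 of 1. With so few regions per gene, whether the spread over genes was uneven was not tested.

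Other regulators of the epidermis and seam, 28 genes listed by name, are given for reference, with no test of a difference. Optimal-list regions lay at 3 of the 28 (10.7%, exact 95% interval 2.27 to 28.2%), pooled-list regions at all 28 and pooled-list regions at percentile 90 or above at 7. The 3 genes were elt-3 itself, the period-related timing gene lin-42 and the β-catenin gene sys-1. At elt-3 the highest region was intronic, 2479 bp downstream (rank 132), without WGATAR. What the inserted tagged gene adds to that region was not tested. At lin-42 it was intronic, 5215 bp downstream (rank 396), with 1 WGATAR. At sys-1 it lay 4205 bp upstream (rank 35), nearest to the histone gene his-68. The median highest percentile over the 28 was 77.8, and their windows had a median of 10.7 kb. A replicate 1 region matched in replicate 2 lay at 17 of the 28 (60.7%), a share like the 6 of 10 above. A pooled-list region with WGATAR within 50 bp of the summit lay at 12 of the 28 (42.9%, exact 95% interval 24.5 to 62.8%). That share was also above the 21.9% of all genes. Endoderm GATA genes, 7 in number, had optimal-list regions at 0 of 7 (exact 95% interval up to 41.0%) and pooled-list regions at 4, with a median highest percentile of 38.1 and a median window of 6.29 kb. Pooled-list regions with WGATAR within 50 bp of the summit lay at 3 of these 7 (42.9%, exact 95% interval 9.90 to 81.6%).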

How the data were processed

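ChIP-seq of tagged ELT-3 was analysed from 4 deposited ce11 region lists, and the ce10 lists were not used. Per the file listings of each library, the authors called relaxed lists per replicate and on pooled replicates, and the optimal list is IDR-thresholded. For aligner, caller and IDR threshold, the sources used here name nothing. The deposited score (the signal value of the caller) was used as a rank within each list. The deposited −log10 q-value was not used. Control data were not analysed here.

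The motif WGATAR was searched on both strands. Windows ran from 5 kb upstream of the annotated 5′ end (the outermost of all transcripts) to the gene end, and a region counted when it overlapped by at least 1 bp. The chromosome names were matched to WBcel235, and 0 regions ended past a chromosome. Summits within 100 bp were called matched between lists. Shares have exact binomial 95% intervals. No test between groups was possible with 1 group, and most main shares stand beside the same share over all genes or regions. The replicate list totals, the split at the 5′ end, the nearest-gene counts and most alternatives have no such background. Named genes were all 10 members, the genes nearest to their regions, and the genes of the other lists with an optimal-list region. The genome and sequences came from RefSeq, and code in Python 3.11.15 and SciPy 1.17.1 was tested on simulated data. Members and lists were chosen with earlier results of these data known. Alternatives changed the window, overlap rule, nearest gene, list depth, replicate, matching distance and motif.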

Additional observations from a re-analysis of the deposited data

How the results depend on the processing

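Of 74 alternatives for the 8 main values, 55 kept the value within its limits (1.5 times for a count, the exact interval for a share, the SD over replicates, 7.40, for the median percentile). Some limits were wide, as for the optimal-list WGATAR share of 1 in 2 regions (1.26 to 98.7%, against 38.4% of all nuclear optimal-list regions). The SD came from the single-replicate medians, which were also among the alternatives. The control WGTAAR, at 16.2% of pooled-list regions, counted as kept, so a kept share is not particular to WGATAR. With each region given only to the nearest 5′ end, optimal-list regions numbered 1, at 1 member (nhr-23), 0 members were among the highest of both replicates and WGATAR was at 0% of that 1 region. With the lower-scoring 50% of each list left out, these values were 1, 1 and 1, and WGATAR was at 100% of 1 region (egl-27). An upstream reach of 2 kb gave 1 member among the highest of both replicates and a median highest percentile of 72.8, and a reach of 1 kb gave 1 member. A reach of 10 kb added rnt-1, for 3 members. Using either replicate list alone, cut to as many of its highest regions as the optimal or pooled list holds, gave 2 to 3 members and 2 to 4 regions in place of the optimal list, and 7 to 10 members and a WGATAR share of 31.4 to 40.5% in place of the pooled list, with WGATAR in the first case at 50 to 75.0%, and a median highest percentile of 82.3 to 92.8. TGATAA in place of WGATAR was at 0% of the optimal-list and 13.5% of the pooled-list regions, and WGTAAR at 0% of the optimal-list regions. WGATAR within 100 bp was at 48.6% of pooled-list regions (41.6% of all nuclear ones). Anywhere in the region it was at 75.7% (62.2% of all) and at 100% of the optimal-list regions. Ending the upstream reach at the next gene, chosen after seeing the data, left 7 members with a pooled-list region. Read depth is unknown, so a gene without a region is not shown to be free of ELT-3. Equally, a region outside the optimal list is not shown to be bound by it.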
